A study of Mus musculus with 8 samples.

Results

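Chemokines are small proteins that steer leukocytes along concentration gradients, and their receptors are G protein-coupled receptors on the cells that migrate. Inflammatory chemokines are induced in injured tissue and draw neutrophils, monocytes and effector lymphocytes, whereas homeostatic chemokines such as CXCL12 and the mucosal chemokine CCL28 are made by resting stroma and epithelia. Tubule cells, endothelium and resident macrophages are known sources of chemokines in the kidney. The genes described here are the protein-coding mouse genes whose symbol begins with Ccl, Cxcl, Cx3cl, Xcl, Ccr or Cxcr followed by a digit. The rule uses names, but the family was taken up with earlier results of these data known. It gave 54 of the 46517 genes listed, 37 ligands and 17 receptors. Of these, 28 passed the filter on low counts and were tested (21 ligands and 7 receptors), 22 had reads but too few for the test, and 4 (Ccl21b, Ccl26, Ccl27b and Cxcr1) had none.

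Messenger RNA of whole kidneys was sequenced from 4 conditional knockout (cKO) mice, KO16, KO18, KO19 and KO20, and 4 Control mice, C10, C11, C13 and C14. The cKO mice were Xpr1lox/lox/Pax8-rtTA/LC1: both Xpr1 alleles carried a floxed exon 2, and the doxycycline-dependent activator rtTA, driven by the Pax8 promoter in the renal tubule, turned on Cre from LC1. Control mice were Xpr1lox/lox littermates, so they shared the floxed alleles but not, per the genotypes given, rtTA or Cre. Doxycycline (2 mg/ml) was added to the water of both groups for 2 weeks, when the mice were 8 weeks old. The deletion was directed at the nephron, whereas whole-kidney RNA also holds leukocytes, vessels and connective tissue, and in such bulk samples a change in the number of cells of a type and a change in RNA per cell cannot be told apart.

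Reads assigned to genes ran from 20366113 (KO16) to 26155030 (C13) per library, and levels are given as CPM, read counts scaled to a common library size with TMM factors. Xpr1, the targeted gene, had 5.74, 26.5, 22 and 12 CPM in KO16, KO18, KO19 and KO20, against 80.2 to 126 CPM in Control kidneys (log2 fold change -2.65, SE 0.44, adjusted p = 0.00491). A total of 2170 of 15382 tested genes (14.1%) changed. KO16 and KO20 stood apart from the other cKO libraries by more counts not assigned to a gene and by a lean to short transcripts. Unassigned counts made up 52% in KO16 and 56.2% in KO20, against 44.1% in KO18, 43.2% in KO19 and 39.7% to 47.5% in Control libraries. For the shortest sixth of genes, the log2 difference from the Control mean was 0.95 in KO16 and 0.49 in KO20, but -0.23 in KO18 and -0.14 in KO19, and C11 leaned the other way at -0.36. The tested chemokine genes had a median exonic length of 2023 bases, against 4152 bases over all tested genes. Kidney epithelium markers were abundant in every library (summed level 5273 to 7306 CPM in cKO and 5181 to 8471 CPM in Control kidneys).

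Chemokine genes moved in opposite directions. Ccl28 was lower in cKO kidneys by 24.4-fold, and 10 genes were higher: the neutrophil attractant Cxcl2, the monocyte attractants Ccl2, Ccl8 and Ccl12, the eosinophil attractant Ccl11, the T cell and monocyte attractant Ccl5, the interferon-induced Cxcl10, the epithelial Cxcl14, Ccl25, and the receptor gene Ccr1. Thus 10 of 28 tested members (35.7%) were higher, against 7.50% of all genes tested, and 1 of 28 (3.57%) was lower, against 6.61%, by edgeR's quasi-likelihood test at an adjusted p under 0.05. The median log2 fold change was 1.08 over the 28 members and 0.01 over all genes tested, and 26 of 28 values were positive. The filter on low counts admits a gene on the reads of 1 group. Cxcl2, Ccl11, Ccl8, Ccl12 and Ccl2, among others, met it through the cKO libraries, so this share, median and count partly reflect the filter. Without the filter, 10 of 50 members with reads were higher, and 1046 of all genes were higher in that fit. The number of genes in that fit is not given, so no share over all genes can be set beside the members. Those members were not the same: Ccl25, Cxcl10 and Cxcl14 were lost, and Ccl9, Cxcl5 and Cxcl17 were gained. The groups did not overlap, with every cKO library above every Control library, for 10 members (35.7%, against 11.2% of all tested genes), and lay wholly below for Ccl28 alone (3.57%, against 11.6%). Ccl28, Cxcl2, Ccl11 and Ccr1 passed under all 18 alternatives. The count of 11 depended on single libraries. Without KO16, KO18, KO19 or KO20 it was 9, 15, 12 or 6, where 2697, 2122, 1721 or 1311 of all genes changed. Without C10, C11, C13 or C14 it was 6, 7, 4 or 4, where 1436, 1961, 1106 or 1200 of all genes changed. Without KO16 and KO20 together it was 6, where 2645 of all genes changed, against 2170 in the main fit.

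**Figure D1:**
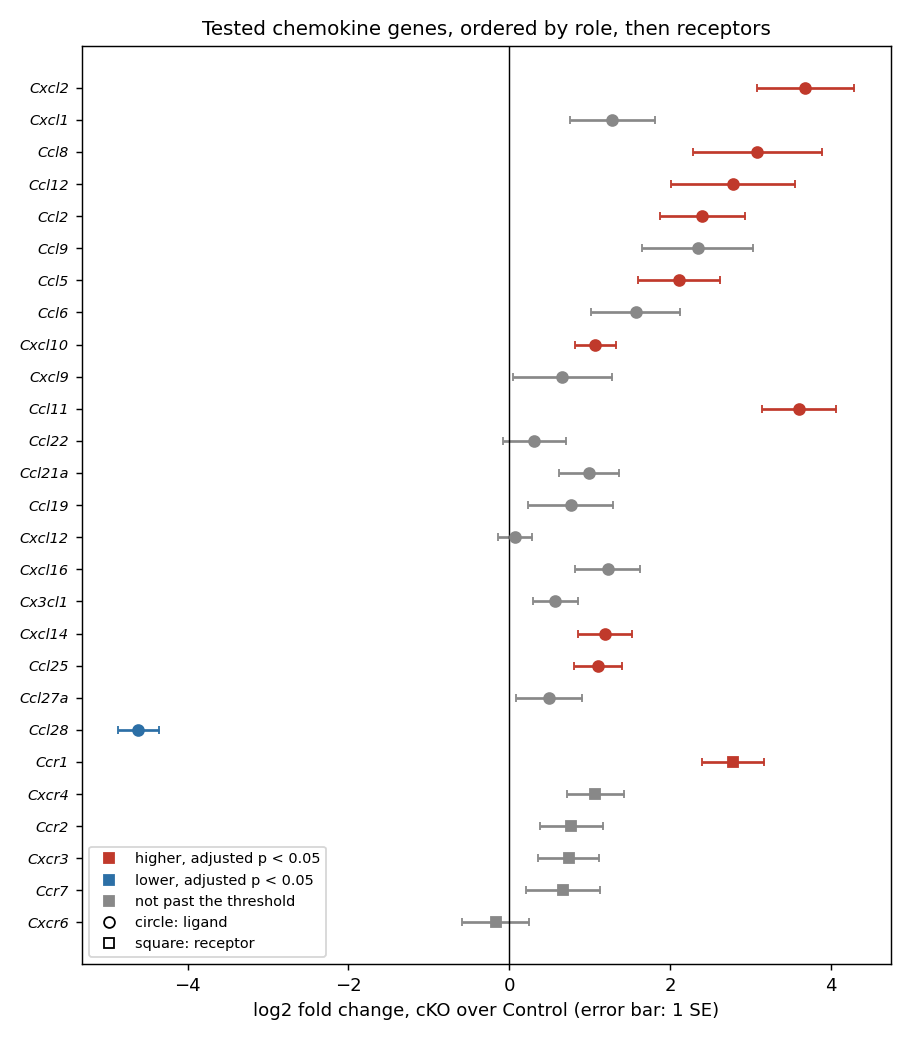
Log2 fold change, cKO over Control, of tested genes on the x axis, with genes on the y axis ordered by role and receptors (squares) at the bottom; bars are 1 SE of the fit on 4 mice per group and colour shows the call. Ccl28 at -4.61 is the only gene shown that was called lower, and Cxcl2 (3.68) and Ccl11 (3.60) have the highest values.

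Ccl28 encodes a mucosal chemokine of epithelial surfaces whose receptors are CCR10 and CCR3. The gene (ENSMUSG00000074715) lies on the plus strand of chromosome 13, chr13:119623819-119654359 in GRCm38. It had 4.62, 5.82, 6.45 and 5.44 CPM in KO16, KO18, KO19 and KO20, against 167, 102, 141 and 137 CPM in C10, C11, C13 and C14. The cKO libraries lay close together and the highest of them was far under the lowest Control library. The means were 5.59 ± 0.765 CPM in cKO and 137 ± 26.6 CPM in Control kidneys (± SD, n = 4 per group), and the fitted log2 ratio was -4.61 (SE 0.25, adjusted p = 0.000159). Across the 18 alternatives, which include fits without KO16 and KO20 and with the trend of each library with transcript length taken out, the value stayed between -4.73 and -4.24. The receptor genes of CCL28 were near the limit of detection: Ccr10 had 7 reads over the 4 cKO libraries and 16 over the 4 Control libraries, and Ccr3 had 2 reads over each group.

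The promoter of Ccl28 is shown because it belongs to the member with the most negative fold change. The window (RefSeq, GRCm38.p6, plus strand, chr13:119623569-119623868) holds the 250 bases before the start site and the first 50 of the gene, and capitals mark its single AP-1 match (TGANTCA, searched on both strands), which begins 20 bases after the start base.
Ccl28: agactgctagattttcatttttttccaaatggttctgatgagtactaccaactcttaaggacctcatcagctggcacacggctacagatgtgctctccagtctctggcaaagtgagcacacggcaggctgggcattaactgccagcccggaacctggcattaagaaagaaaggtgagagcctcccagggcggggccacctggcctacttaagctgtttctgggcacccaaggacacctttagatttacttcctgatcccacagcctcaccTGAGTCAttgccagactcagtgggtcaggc
AP-1 matches occur in 7.81% of 32851 promoter windows of this length. No match to the kB consensus, to an IRF element (GAAANNGAA) or to the HNF1 motif (GTTAATNA) was found in this window on either strand, and 4.51%, 8.56% and 2.54% of all windows hold them. A match is a run of letters and was not tested as a binding site.

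The make-up of the ligand transcripts differed between the groups, with Ccl28 abundant in Control kidneys. Ccl28 gave 0.6% to 1.46% of the scaled ligand reads in cKO libraries, against 20.5% to 30.6% in Control libraries. Cxcl12 gave 22.8% to 42.2% in cKO and 34.1% to 42.3% in Control libraries, and Cxcl16 gave 17.2% to 36.5% and 10.6% to 14.8%. These are shares of reads and are not corrected for transcript length. The ligands other than Ccl28 and Cxcl12 summed to 590, 261, 259 and 442 CPM in KO16, KO18, KO19 and KO20, against 170 to 192 CPM in Control libraries, so the sum was higher in every cKO library and highest in KO16 and KO20. All ligands together summed to 441 to 771 CPM in cKO and 491 to 544 CPM in Control libraries, and these ranges overlapped.

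**Figure D2:**
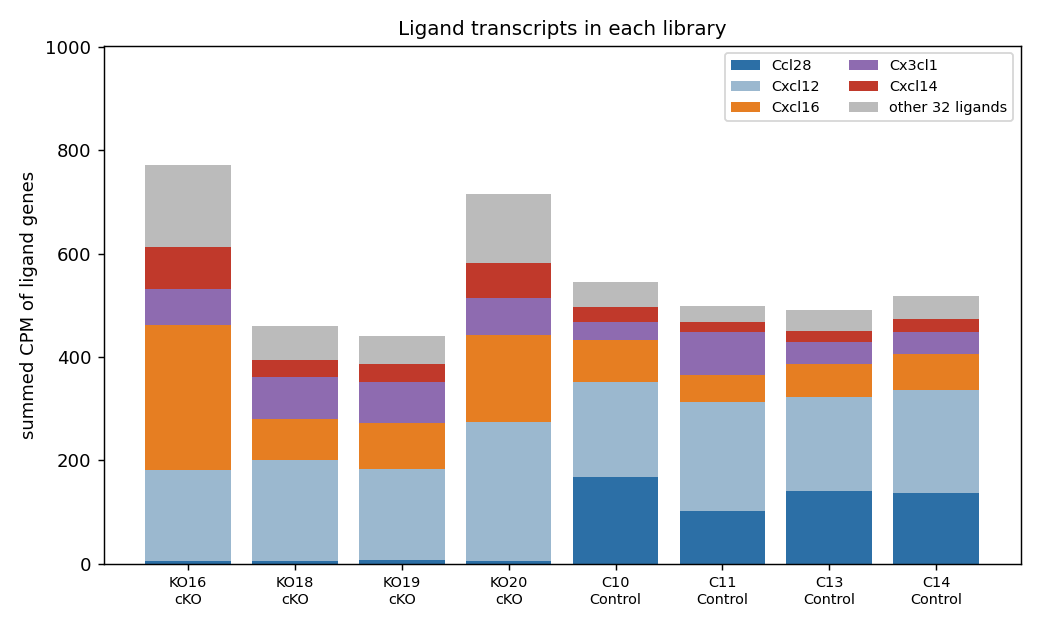
Summed CPM of the 37 ligand genes (y axis) in each library (x axis, cKO left, Control right), stacked by gene. Ccl28 is a wide band in the 4 Control bars (102 to 167 CPM) and a thin line in the 4 cKO bars (4.62 to 6.45 CPM).

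Per kilobase of exon, Ccl28 was first of the 28 tested members in Control kidneys and 22nd in cKO kidneys. In cKO kidneys the order was Cxcl16 (51.2 ± 30.9 CPM per kilobase), Cxcl14 (29.1 ± 13.5), Cxcl12 (24.9 ± 5.36) and Cx3cl1 (19.4 ± 1.58), with Ccl28 at 1.15 ± 0.158 CPM per kilobase (SD, n = 4 mice). In Control kidneys it was Ccl28 (28.2 ± 5.5 CPM per kilobase), Cxcl12 (23.7 ± 1.67), Cxcl16 (22 ± 3.81), Cx3cl1 (13.1 ± 5.47) and Cxcl14 (12.7 ± 2.05). Each of the neighbours listed from the top of an order differed from the next by less than the sum of their SDs, so their order is not settled by these libraries.

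Cxcl2, a CXC ligand that draws neutrophils through CXCR2, was scarcely detected in Control kidneys. It had 1.49, 2.62, 0.97 and 1.77 CPM in KO16, KO18, KO19 and KO20, against 0.0482, 0.321, 0.0869 and 0.0443 CPM in C10, C11, C13 and C14. Every cKO library lay above every Control library, and C11 was the highest Control. The fitted log2 ratio was 3.68 (SE 0.60, adjusted p = 0.00429), and 4.71 without C11 (adjusted p = 0.00209). Cxcl1, a ligand of the same receptor, had 6.7, 13.3, 5.33 and 16.5 CPM in KO16, KO18, KO19 and KO20, against 5.69, 1.2, 6.61 and 3.72 CPM in C10, C11, C13 and C14. Its groups overlapped and it did not pass (log2 fold change 1.28, SE 0.53, adjusted p = 0.158). Cxcl5 had too few reads for the test, with 4, 7, 7 and 11 reads in KO16, KO18, KO19 and KO20 against 1 read over all Control libraries. The scaled read ratio of Cxcl5 was 24.8, with an exact 95% counting interval of 4.11 to 1012 that covers counting error alone, and a fit without the filter gave an adjusted p of 0.0127. Cxcl3 and the lung chemokine gene Cxcl15 had 7 and 5 reads over the cKO libraries and 2 and 1 over the Control libraries. Of the receptor genes, Cxcr2 had 13 reads over the cKO and 17 over the Control libraries and Cxcr1 had none. Neutrophil markers summed to 2.08 to 8.29 CPM in cKO and 1.89 to 6.03 CPM in Control libraries, none of the 3 tested markers passed, and Mpo had no read in any library.

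Cxcl1, Cxcl2 and Cxcl3 are neighbours on chromosome 5, and the stretches with their kB matches are shown so that this element can be compared between them. The letters match on both strands, as overlapping matches. The stretches are 60 bases each on the plus strand (RefSeq, GRCm38.p6), with the kB letters in capitals: chr5:90891135-90891194 for Cxcl1, chr5:90903789-90903848 for Cxcl2 and chr5:90785991-90786050 for Cxcl3.
Cxcl1: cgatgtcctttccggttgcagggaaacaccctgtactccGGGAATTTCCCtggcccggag
Cxcl2: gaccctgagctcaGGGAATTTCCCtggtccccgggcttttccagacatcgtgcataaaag
Cxcl3: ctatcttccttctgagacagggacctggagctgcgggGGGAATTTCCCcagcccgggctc
The kB consensus was found in 9 of the 47 windows of the 40 members in the promoter table (19.1%), against 4.51% of all windows. The IRF element was found in 8 of the 47 (17%), against 8.56% of all windows, and the AP-1 motif in 10 of the 47 (21.3%), against 7.81%. Of the 11 changed members, 8 are in that table, and of these Cxcl2 and Cxcl10 hold a kB match.

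The tested genes grouped as monocyte attractants were higher, but with a wide spread among cKO kidneys. Ccl2 had 2.6, 1.25, 1.48 and 5.53 CPM in KO16, KO18, KO19 and KO20, against 0.772, 0.481, 0.348 and 0.443 CPM in C10, C11, C13 and C14, without overlap (log2 fold change 2.40, SE 0.53, adjusted p = 0.017). Without C13 or C14 the adjusted p of Ccl2 rose above the threshold, to at most 0.0643, and without KO16 and KO20 together its value was 1.41 (adjusted p = 0.0319). Ccl8 had 8.24, 1.18, 0.667 and 4.77 CPM in KO16, KO18, KO19 and KO20, against 0.338, 0.241, 0.435 and 0.709 CPM in C10, C11, C13 and C14. KO16 and KO20 were high, whereas KO19 lay under the highest Control library (log2 fold change 3.08, SE 0.80, adjusted p = 0.0321). Ccl12, a mouse monocyte attractant close to Ccl2, followed the same order, with 5.69, 0.864, 0.485 and 4.09 CPM in KO16, KO18, KO19 and KO20 against 0.482, 0.521, 0.261 and 0.31 CPM in C10, C11, C13 and C14 (log2 fold change 2.78, SE 0.77, adjusted p = 0.0417). Without KO16 and KO20 the value of Ccl8 was 1.09 (adjusted p = 0.157) and that of Ccl12 was 0.76 (adjusted p = 0.255), so both calls rested on these libraries. Both passed once the length trend was taken out. Their calls were also lost without KO16 alone, without KO20 alone and without any single Control library (adjusted p up to 0.0935 for Ccl8 and 0.122 for Ccl12). Ccl7, the remaining ligand of this group, had 39 reads over the cKO and 12 over the Control libraries (ratio 2.78, exact 95% counting interval 1.42 to 5.83). That interval covers counting error alone. The groups of Ccl7 overlapped, and the edgeR fit without the filter gave it an adjusted p of 0.247. The monocyte receptor gene Ccr2 had 12.8, 11.8, 11.7 and 31.5 CPM in KO16, KO18, KO19 and KO20, against 13.4, 6.1, 9.82 and 10.4 CPM in C10, C11, C13 and C14. KO20 alone lay above the Controls, and Ccr2 did not pass (log2 fold change 0.77, SE 0.39, adjusted p = 0.242).

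Ccl11, eotaxin, which attracts eosinophils through CCR3, was higher in every cKO library. Its levels were 6.91, 2.78, 2.88 and 5.57 CPM in KO16, KO18, KO19 and KO20, against 0.241, 0.562, 0.435 and 0.222 CPM in C10, C11, C13 and C14. The lowest cKO library lay far above the highest Control library, with log2 fold change 3.60 (SE 0.46, adjusted p = 0.00144), and 2.92 without KO16 and KO20 (adjusted p = 0.00386). Eosinophil and mast cell markers stayed low, at 0.192 to 1.28 CPM in cKO and 0.133 to 0.434 CPM in Control libraries summed over 6 genes. Of the type 2 ligands of CCR4, Ccl22 did not pass (0.31, adjusted p = 0.663) and Ccl17 was too low for the test, with 22, 9, 11 and 57 reads in KO16, KO18, KO19 and KO20 against 18 reads over the Control libraries. Ccl1, Ccl24, Ccr4 and Ccr8 had at most 7 reads over either group.

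Ccl5, which attracts T cells and monocytes and has CCR1 among its receptors, was led by a single library. It had 11.2, 2.62, 3.45 and 2.74 CPM in KO16, KO18, KO19 and KO20, against 1.54, 0.963, 1.04 and 1.06 CPM in C10, C11, C13 and C14. All cKO libraries lay above the Controls (log2 fold change 2.11, SE 0.51, adjusted p = 0.025). Without KO16 the value was 1.35 (adjusted p = 0.00897). The call was lost without C11, C13 or C14 (adjusted p up to 0.0829). Ccl6 and Ccl9, rodent chemokines of myeloid cells, fell short of the threshold with log2 fold changes of 1.57 (SE 0.55, adjusted p = 0.0978) and 2.34 (SE 0.69, adjusted p = 0.0515). Ccl9 had 14.9, 2.08, 2.09 and 11.2 CPM in KO16, KO18, KO19 and KO20, against 1.88, 0.762, 1.56 and 1.73 CPM in C10, C11, C13 and C14. Its groups did not overlap, but KO18 and KO19 lay close to the Controls. Ccl6 had 18.4, 4.51, 5.54 and 21.1 CPM in KO16, KO18, KO19 and KO20, against 5.84, 2.01, 4.52 and 4.34 CPM in C10, C11, C13 and C14, with overlap. Ccl9 passed in 7 of 18 alternatives, among them the removal of the length trend (2.21, adjusted p = 0.0351), and Ccl6 in 4 of 18. Without KO16 and KO20 their values were 0.49 (adjusted p = 0.395) for Ccl9 and 0.26 (adjusted p = 0.692) for Ccl6. Ccl3 and Ccl4 had 19 and 36 reads over the cKO libraries and 14 and 33 over the Control libraries.

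Most macrophage and monocyte markers were higher in cKO kidneys, but not all followed the order of these ligands among the cKO libraries. Of 11 markers 9 were higher (81.8%, against 7.50% of all tested genes) and 0 lower. Their summed level was 1102, 306, 338 and 811 CPM in KO16, KO18, KO19 and KO20, against 132 to 148 CPM in Control libraries. Lyz2, the lysozyme gene of myeloid cells, gave most of the sum in KO16 (592 CPM). Ly6c2 and Csf1r did not pass. Adgre1, the macrophage marker F4/80, was also highest in KO20 and KO16 but with a smaller gap, at 14.9, 11.1, 13.1 and 17.9 CPM in KO16, KO18, KO19 and KO20 against 3.13 to 5.63 CPM in Control libraries. Mrc1 and Csf1r did not have this order. Mrc1 had 6, 11.4, 9.15 and 17 CPM in KO16, KO18, KO19 and KO20, and Csf1r had 51.1, 60.9, 73.5 and 42.6 CPM. Ptprc, the marker of all leukocytes, did not pass (11.3 to 28.9 CPM in cKO and 12.4 to 17.1 CPM in Control libraries). Its lowest value among all libraries was that of KO16 (11.3 CPM). Fat markers summed to 29, 0.992, 8.79 and 27.9 CPM in KO16, KO18, KO19 and KO20, against 0.608 to 4.82 CPM in Control libraries. The part of macrophages, fat or the length lean in the ligand values was not tested.

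**Figure D3:**
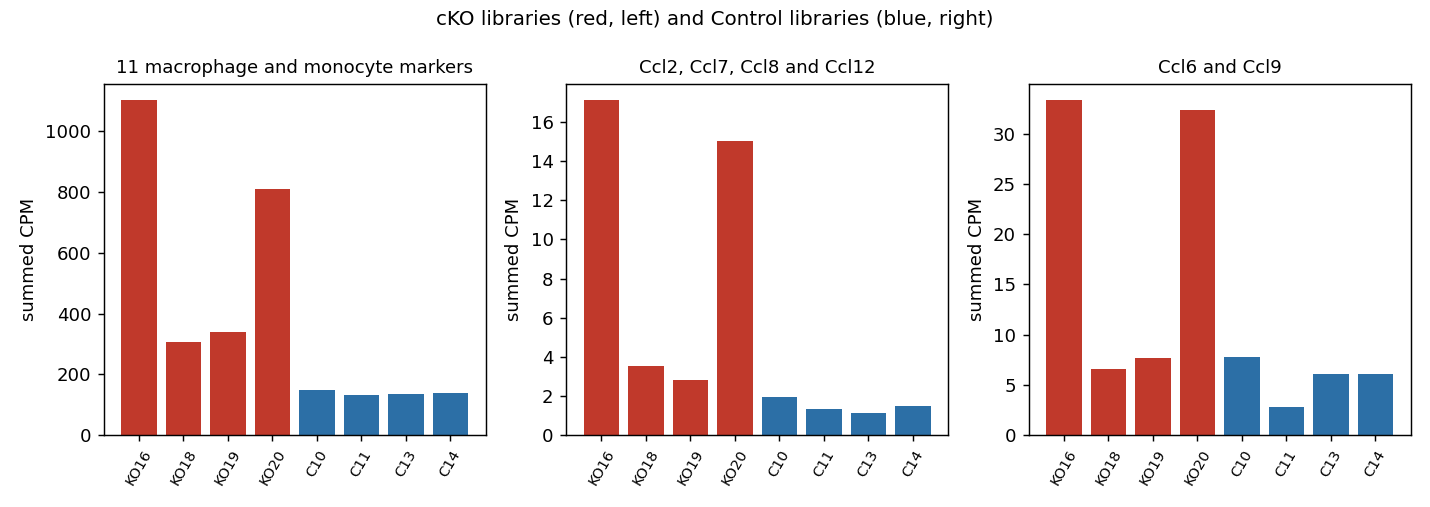
Summed CPM (y axes) in each library (x axes, cKO red and left, Control blue and right) of 11 macrophage and monocyte markers, of Ccl2, Ccl7, Ccl8 and Ccl12, and of Ccl6 and Ccl9. KO16 and KO20 are highest in all 3 panels; for Ccl6 and Ccl9 KO18 (6.59) and KO19 (7.63) lie within the Control range of 2.77 to 7.72 CPM.

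Across the family, 19 of 28 tested members (67.9%) were higher in both KO16 and KO20 than in both KO18 and KO19, against 34.1% of all tested genes. Ccl28 and Cx3cl1 had the opposite order (7.14%, against 39.5% of all tested genes), and Cxcl2, Cxcl1, Cxcl10, Ccl5, Cxcl12, Cxcr3 and Cxcr4 had neither. KO16 and KO20 leaned to short transcripts, and the tested members were shorter than all tested genes (median 2023 against 4152 bases). The shares over all genes are therefore not matched for length, and the part of length in this order was not tested.

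**Figure D4:**
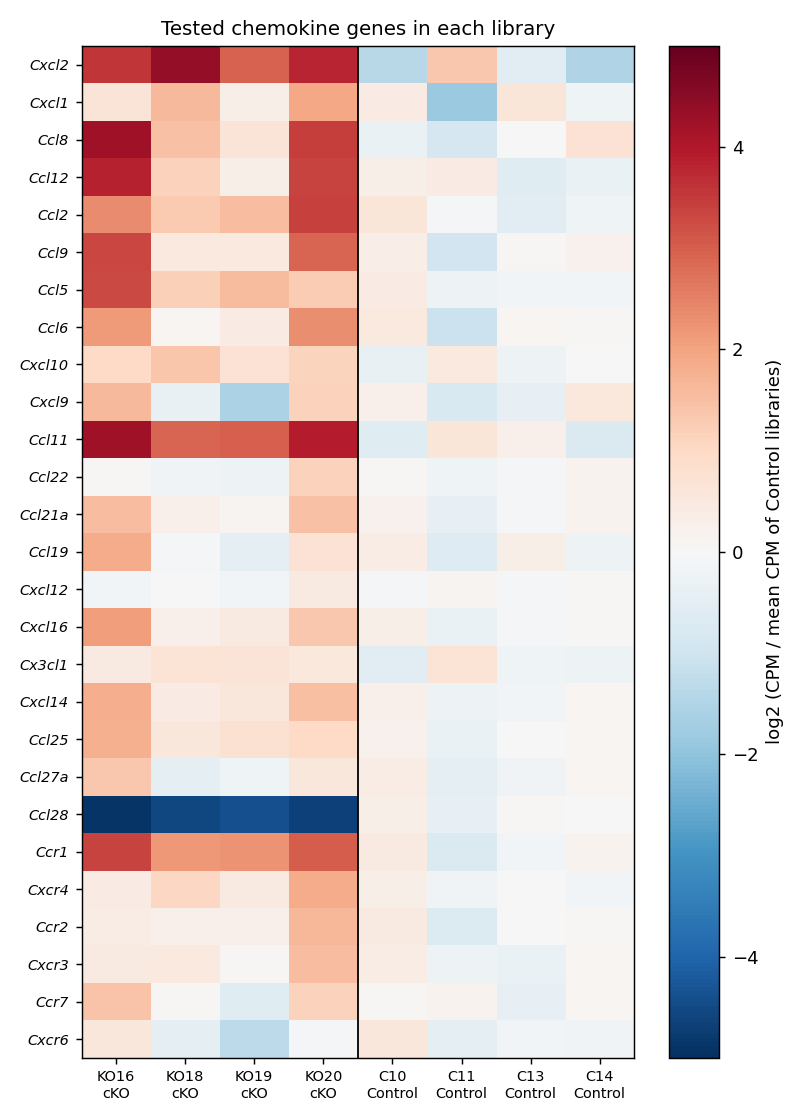
Log2 ratio of each library's CPM to the mean of the 4 Control libraries (colour) for tested genes (rows, by role, receptors last) and 8 libraries (columns, cKO left). KO16 and KO20 are deepest in colour for Ccl8, Ccl12, Ccl9 and Ccl6, whereas Ccl28, Ccl11 and Cxcl2 are far from the Control mean in all 4 cKO libraries.

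Interferon-induced ligands of CXCR3, which draw activated T cells, differed from each other. Cxcl10 had 7.28, 9.53, 6.09 and 7.97 CPM in KO16, KO18, KO19 and KO20, against 2.85, 5.17, 3.04 and 3.63 CPM in C10, C11, C13 and C14. The cKO libraries were all higher and close together (log2 fold change 1.07, SE 0.26, adjusted p = 0.0263). The call was lost once the length trend was taken out (0.93, adjusted p = 0.0772) and without KO16 and KO20 (1.08, adjusted p = 0.0556). It was also lost without KO18, KO20, C10, C13 or C14 (adjusted p up to 0.1). Cxcl9 had 12.5, 3.2, 1.36 and 9.07 CPM in KO16, KO18, KO19 and KO20, against 4.97, 2.41, 3.13 and 5.94 CPM in C10, C11, C13 and C14. It overlapped widely and did not pass (0.66, SE 0.62, adjusted p = 0.551), and its sign turned without KO16 and KO20 (-0.85, adjusted p = 0.285). The receptor gene Cxcr3 stood at 1.12 ± 0.558 CPM in cKO and 0.665 ± 0.158 CPM in Control kidneys (± SD, n = 4 per group; log2 fold change 0.74, adjusted p = 0.254). T cell markers summed to 8.15 to 27.4 CPM in cKO and 7.02 to 10.8 CPM in Control libraries. Of 9 markers Cd4 alone was higher (11.1%, against 7.50% of all tested genes). The Cxcl10 promoter is printed because, of the 40 members in the promoter table, it alone matches the kB, IRF and AP-1 motifs together. The window (RefSeq, GRCm38.p6, minus strand, chr5:92348840-92349139) shows in capitals, in this order, an IRF element, 2 kB matches and an AP-1 match.
Cxcl10: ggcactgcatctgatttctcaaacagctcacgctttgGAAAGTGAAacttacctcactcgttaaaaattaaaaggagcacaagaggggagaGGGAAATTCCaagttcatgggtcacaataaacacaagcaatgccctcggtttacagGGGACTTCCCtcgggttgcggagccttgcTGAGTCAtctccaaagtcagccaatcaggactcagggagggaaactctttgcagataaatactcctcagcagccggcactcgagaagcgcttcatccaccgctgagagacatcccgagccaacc

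Of the tested epithelial and mucosal ligands other than Ccl28, 2 were higher and 1 did not pass, where 7.50% of all tested genes were higher. Cxcl14, a chemokine of epithelia, had 81.1, 31.1, 34 and 66.7 CPM in KO16, KO18, KO19 and KO20, against 27.8, 19.3, 21.2 and 24.7 CPM in C10, C11, C13 and C14. The groups did not overlap, and KO18 and KO19 were nearest the Controls (log2 fold change 1.19, SE 0.34, adjusted p = 0.0447). Its call was lost in 10 of 18 alternatives, among them the fit without KO16 and KO20 (0.48, adjusted p = 0.136) and those without KO16, KO20 or any single Control library (adjusted p up to 0.134). Ccl25, the thymic and gut ligand of CCR9, had 25.5, 11.1, 12.7 and 14.9 CPM in KO16, KO18, KO19 and KO20, against 8.59, 5.9, 7.47 and 8.02 CPM in C10, C11, C13 and C14. All cKO libraries were higher (log2 fold change 1.10, SE 0.30, adjusted p = 0.0381), with the call lost without KO16 and KO20 (0.66, adjusted p = 0.0684) and once the length trend was taken out (1.41, adjusted p = 0.0582). Leaving out KO20 or any single Control library also ended it (adjusted p up to 0.111). Ccl27a, a skin chemokine and ligand of CCR10 like Ccl28, did not pass (8.26 ± 4.9 CPM in cKO and 5.87 ± 1.44 CPM in Control kidneys, ± SD, n = 4 per group; 0.49, adjusted p = 0.492). Cxcl17, a mucosal chemokine, was below the filter with 18, 7, 7 and 16 reads in KO16, KO18, KO19 and KO20 against 1 read in C11 and 0 in the other Control libraries. The ratio was 41 (exact 95% counting interval 7.02 to 1653), and a fit without the filter gave an adjusted p of 0.00713. Ccl20 had 19 reads over the cKO and 2 over the Control libraries (ratio 8.12, interval 1.96 to 71.9; adjusted p = 0.1 in the fit without the filter). The receptor genes Ccr9 and Ccr6 had 44 and 8 reads over the cKO libraries and 39 and 2 over the Control libraries.

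**Figure D5:**
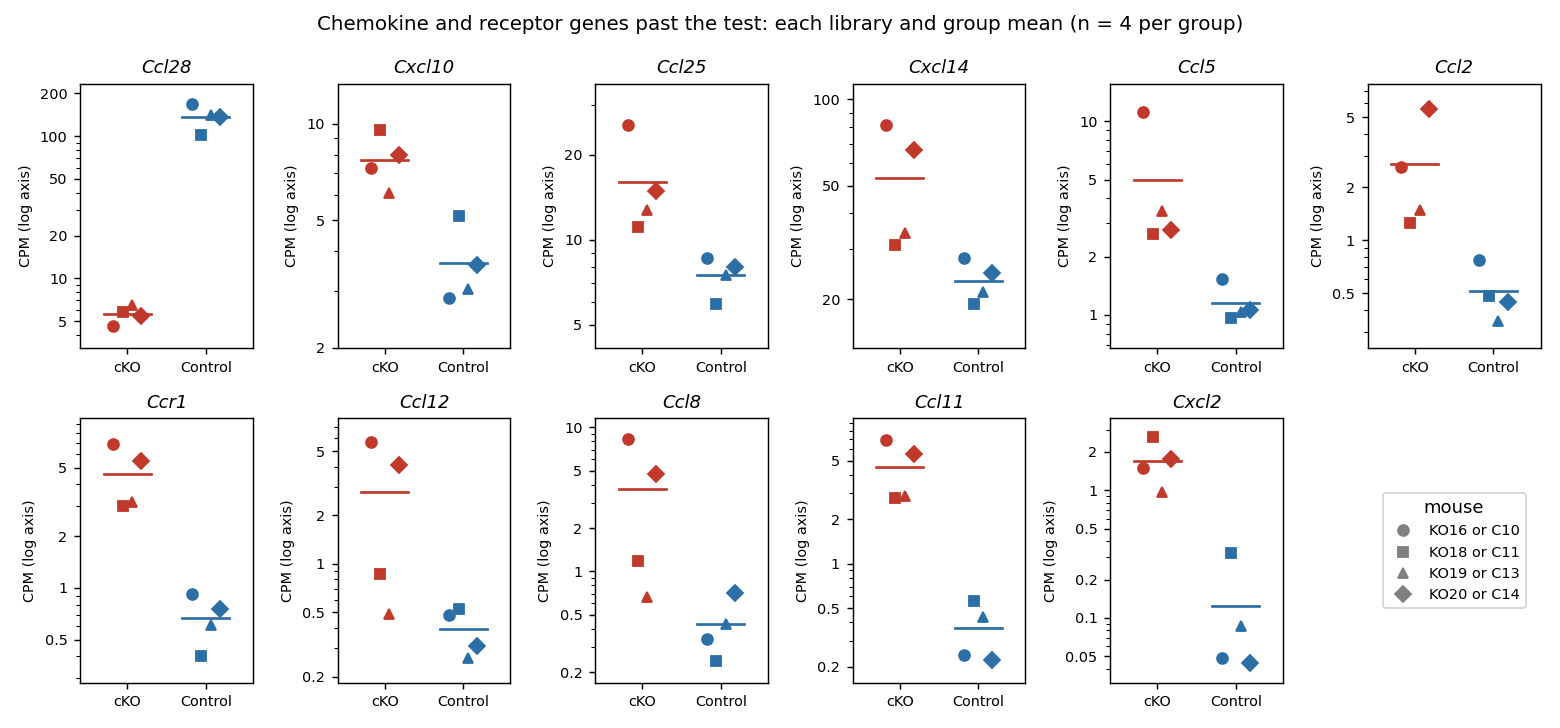
CPM on log axes (y) of the 11 genes past the test in each of 4 cKO (red, left) and 4 Control (blue, right) libraries; lines are group means, and marker shapes name mice without pairing them. The groups are apart for 9 genes and overlap for Ccl8 and Ccl12, where KO19 is within the Control range.

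The abundant constitutive and membrane-bound ligands changed little or unevenly. Cxcl12, which holds CXCR4-bearing cells in tissue, had 176, 194, 176 and 268 CPM in KO16, KO18, KO19 and KO20, against 185, 211, 181 and 200 CPM in C10, C11, C13 and C14. KO20 lay above all others and the remaining cKO libraries within or just under the Control range. The means were 203 ± 43.9 CPM in cKO and 194 ± 13.7 CPM in Control kidneys (± SD, n = 4 per group), with a fitted log2 ratio of 0.07 (SE 0.21, adjusted p = 0.873), although a p above the threshold does not show that its level was the same. The receptor gene Cxcr4 had 4.25, 6.43, 4.36 and 11.6 CPM in KO16, KO18, KO19 and KO20, against 3.86, 2.81, 3.17 and 2.88 CPM in C10, C11, C13 and C14. Its groups did not overlap, but it did not pass (1.07, SE 0.35, adjusted p = 0.0766). Cxcl16, a transmembrane ligand and scavenger receptor, had 281, 79.2, 89.6 and 168 CPM in KO16, KO18, KO19 and KO20, against 80.4, 52.5, 63.8 and 68.7 CPM in C10, C11, C13 and C14. KO18 lay just under C10, and Cxcl16 did not pass (1.22, SE 0.40, adjusted p = 0.0755; adjusted p = 0.0459 once the length trend was taken out). Its receptor gene Cxcr6 stood at 1.22 ± 0.62 CPM in cKO and 1.35 ± 0.465 CPM in Control kidneys (-0.17, adjusted p = 0.847). Cx3cl1, fractalkine, had 69.5, 83, 79.9 and 73.1 CPM in KO16, KO18, KO19 and KO20, against 35.6, 83.2, 43.8 and 43 CPM in C10, C11, C13 and C14. C11 alone reached the cKO level, and Cx3cl1 did not pass with it in the fit (0.57, SE 0.28, adjusted p = 0.227); without C11 it did (0.90, adjusted p = 0.0213).

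Lymphoid organ ligands did not pass. Ccl21a, which guides CCR7-bearing dendritic and T cells, had 8.2 ± 4.08 CPM in cKO and 4.12 ± 0.763 CPM in Control kidneys (log2 fold change 0.99, adjusted p = 0.12). Ccl19, a ligand of the same receptor, had 1.1 ± 0.83 and 0.634 ± 0.201 CPM in cKO and Control kidneys (0.76, adjusted p = 0.402), and Ccr7 itself 0.754 ± 0.434 and 0.46 ± 0.0767 CPM (0.67, adjusted p = 0.397; ± SD, n = 4 per group). The B cell attractant Cxcl13 had 40 reads over the cKO and 22 over the Control libraries, its receptor gene Cxcr5 11 and 17, and the lymphocyte chemokine gene Xcl1 41 and 26. B cell markers summed to 49.3 to 123 CPM in cKO and 34.9 to 88.9 CPM in Control libraries (1 of 6 higher, Ighm, 16.7%). NK cell markers summed to 1.21 to 4.14 CPM in cKO and 1.83 to 3.23 CPM in Control libraries (0 of 2 tested passed). Dendritic cell markers summed to 19 to 26.5 and 15.5 to 20.9 CPM (2 of 7 higher, Flt3 and Siglech, 28.6%). Siglech met the filter on low counts through the cKO libraries, so the share of 28.6% partly reflects the filter. Of all tested genes 7.50% were higher.

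Ccr1, a receptor of monocytes, macrophages and neutrophils for CCL3, CCL5, CCL6 and CCL9 among others, was the receptor gene that rose. It had 6.91, 2.98, 3.15 and 5.44 CPM in KO16, KO18, KO19 and KO20, against 0.916, 0.401, 0.608 and 0.754 CPM in C10, C11, C13 and C14. Every cKO library was above the Controls, with log2 fold change 2.78 (SE 0.39, adjusted p = 0.00227), and 2.19 without KO16 and KO20 (adjusted p = 0.00614). Thus 1 of 7 tested receptor genes (14.3%) and 9 of 21 tested ligand genes (42.9%) were higher, against 7.50% of all tested genes. Ccr1, Cxcl2, Ccl11, Ccl8, Ccl12 and Ccl2 met the filter on low counts through the cKO libraries, so both shares partly reflect the filter. The receptor share rests on 1 gene, and the difference between ligands and receptors was not tested. The receptor-like gene Ccr1l1, beside Ccr1, had 1 read over each group. All receptors together summed to 27.8 to 64.7 CPM in cKO and 14.2 to 26.9 CPM in Control libraries.

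By position, the changed genes included a run of neighbours on chromosome 11. Over all tested genes, 7.50% were higher. In the group at chr11:82035571-82305690 all 4 tested genes, Ccl2, Ccl11, Ccl12 and Ccl8, were higher, with a median log2 fold change of 2.93. All 4 met the filter on low counts through the cKO libraries, and Ccl7 and Ccl1 of this group were not tested. The calls of Ccl8 and Ccl12 were lost without KO16 and KO20 (adjusted p = 0.157 and 0.255 by edgeR). Of the group at chr11:83525778-83664683, 1 of 3 tested (Ccl5) was higher and Ccl6 and Ccl9 did not pass. In the CXC group at chr5:90759360-90905938, 1 of 2 tested (Cxcl2) was higher. At chr4:41769467-42773993, which holds Ccl27a, Ccl19 and Ccl21a, 0 of 3 tested passed, with adjusted p-values of 0.12 to 0.492. Reads that align to several places were not assigned, and 71.6%, 52% and 45% of the 50-base words of Ccl21a, Ccl19 and Ccl27a transcripts occur in other genes, so their counts come from the remaining sequence; the words of Ccl21b and Ccl27b are shared to 100% and 98.1%, and their 0 reads do not measure them. Exons of Cxcl16, Cxcl10 and Ccl25 overlap opposite-strand exons of Zmynd15 (552 bases), Art3 (133 bases) and Elavl1 (204 bases). None of these neighbours passed (log2 fold changes 0.12, 0.36 and -0.25), and how the counting treated strand is not given in the sources used here.

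Other genes of chemokine action were examined as lists chosen with earlier results of these data known, and their counts are set against the 7.50% of all tested genes that were higher. Of 9 atypical and further receptor genes 6 were tested, and Cx3cr1, the fractalkine receptor of macrophages, rose (12 ± 2.06 CPM in cKO and 4.71 ± 0.331 CPM in Control kidneys, ± SD, n = 4 per group; log2 fold change 1.34, SE 0.21, adjusted p = 0.00386), with 0 lower and a list median of 0.03; this is 16.7% of those tested. Of 9 genes for platelet chemokines and chemokine processing 3 rose, Pf4 (2.31), Mmp2 (1.45) and Mmp9 (1.28), and 0 fell (33.3% higher, median 0.66). Mmp9 met the filter on low counts through the cKO libraries, so the share of 33.3% partly reflects the filter. Of 31 signalling genes below the receptors 2 rose, Vav1 (1.24) and Was (1.38), and 0 fell (median 0.49); their share of 6.45% lies under that of all genes. Of 15 inducing cytokine genes only 5 were tested, and the rest, Tnf, Il6 and Ifng among them, were too low. Of those 5 tested, 3 rose, Csf1 (1.81), Il33 (0.84) and Tslp (2.69), and 0 fell (60% higher, median 1.27). Tslp met the filter on low counts through the cKO libraries, so this share partly reflects the filter. Among 20 NF-kB and STAT pathway genes 6 rose, Socs3 (2.12), Cebpd (2.00), Irf7 (1.64), Relb (1.18), Nfkbie (1.01) and Birc3 (0.82), and 0 fell (30% higher, median 0.76). Of 20 leukocyte adhesion genes 16 were tested, and 4 rose, Vcam1 (2.01), Itgam (1.93), Selplg (1.08) and Icam1 (0.82), and 0 fell (25% higher, median 0.27). Endothelial markers summed to 178 to 223 CPM in cKO and 252 to 324 CPM in Control libraries with 0 of 5 past the test, and fibroblast and pericyte markers to 252 to 373 and 118 to 189 CPM with 2 of 5 higher, Col3a1 and Dcn. Fat (0 of 2) and adrenal markers (0 of 1 tested; 0.319 to 0.96 CPM in cKO and 0.621 to 0.963 CPM in Control libraries) did not pass. In the tissue check, Pax8 and Aqp2 were higher and Lrp2 was lower among 9 kidney epithelium markers.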

How the data were processed

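Whole-kidney mRNA libraries of 4 cKO and 4 Control mice, 1 per mouse, were analysed. Per the file headers, the authors deposited raw read counts for Ensembl genes, 1 column per library. The submitters' processing notes name cutadapt 1.3, STAR 2.4.0g, HTSeq 0.6.1 and build GRCm38. For the annotation release and the strand setting, the sources used here give nothing. Closing lines that name no gene (39.7% to 56.2% of each file) were left out. Symbols and lengths came from GENCODE vM21 (46005 of 46517 identifiers matched); 3 pseudogenes with matching symbols were left out, and 7 scaffold copies were not analysed here. cKO was compared with Control by edgeR 4.0.16 in R 4.3.3 (TMM, filterByExpr with a minimum count of 10 and total of 15, quasi-likelihood F test, no covariates), with Benjamini-Hochberg adjustment over 15382 genes and a threshold of 0.05. The fit was tested on simulated data. P-values measure the spread between these libraries. The common biological coefficient of variation was 0.386, and the closest replicate pair had a chi-square per degree of freedom of 7.55 over genes, so no library looked deposited in copies.

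Alternatives were RLE, upper-quartile and no composition factors, DESeq2 1.42.0, limma-voom (limma 3.58.1), no filter, a mean of at least 1 CPM, removal of each library's trend with exonic length, each library left out, and KO16 and KO20 left out without and with C11. Members and lists were chosen with earlier results of these data known. Tested members were to be named, and those past the threshold given in every library; other members shown in every library were chosen after their values were seen. A tested member that did not pass is counted, and in the summed levels, but not reported here. Promoter windows (300 bases) of 40 members came from RefSeq.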

Additional observations from a re-analysis of the deposited data

Results flagged for a closer look

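In 5 of the 56 sets of 4 libraries examined (28 genes in 2 groups), a single library stood apart from the other 3 by more than Dixon's 95% critical value for the gap over the range; chance alone flags about 1 set in 20. KO20 was the highest cKO library for Ccr2 (31.5 CPM against 11.7 to 12.8 in the others, ratio 0.9438) and Ccl22 (1.14 CPM against 0.424 to 0.531, ratio 0.8500). KO16 was highest for Ccl5 (11.2 CPM against 2.62 to 3.45, ratio 0.9033). C11 was the highest Control library for Cxcl2 (0.321 CPM against 0.0443 to 0.0869, ratio 0.8460) and Cx3cl1 (83.2 CPM against 35.6 to 43.8, ratio 0.8292). The cause was not tested.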

How the results depend on the processing

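Ccl28, Cxcl2, Ccl11 and Ccr1 kept their direction and call in all 18 alternatives. The count of 11 changed members (10 higher) was 17 (16 higher) with library totals alone and 19 (18 higher) with DESeq2, 6 (5 higher) without KO16 and KO20, and ranged from 4 to 15 (3 to 14 higher) when 1 library was left out. Without KO16, KO20 and C11 it was 14, of which 4 were lower. Over all genes, 2170 changed (1154 higher, 1016 lower). Library totals alone gave 2374 higher and 548 lower genes (81.2% higher, against 53.2%) and put the median of all genes at 0.34 on the log2 scale, against which those higher calls are to be read. Upper-quartile factors put it at 0.14, with 63.9% higher. DESeq2 gave 1756 higher. Leaving out 1 library gave 1106 to 2697 genes (531 to 1363 higher and 566 to 1334 lower), and without KO16, KO20 and C11 9175 changed (4689 higher, 4486 lower).

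Signs turned for genes that had not passed. Without KO16 and KO20, and then without C11 as well, the log2 fold changes were -0.25 and -0.46 for Ccl19, -0.22 and -0.31 for Ccl22, -0.34 and -0.49 for Ccl27a, -0.24 and -0.20 for Ccr7, -0.08 and -0.07 for Cxcl12 and -0.85 and -1.08 for Cxcl9; in the second fit Ccl27a, Cxcl9 and Cxcr6 (-0.98) were called lower. With 1 library left out, Ccl22 ranged from -0.05 (without KO20) to 0.47, Cxcl12 from -0.02 (without KO20) to 0.13 and Cxcr6 from -0.51 to 0.08 (without KO19 or C10). Cxcr6 was 0.11 with library totals alone. The cause was not tested. No paired analysis was possible because the groups share no replicate number. The filter on low counts left 22 members with reads out of the test; without it, Cxcl5 and Cxcl17 passed.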

Other observations

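Cxcl11, annotated as a polymorphic pseudogene in GENCODE vM21 and so not among the 54 genes, had 0.768 to 1.28 CPM in cKO and 0.608 to 1.4 CPM in Control libraries (log2 fold change 0.08, SE 0.35, adjusted p = 0.916 by edgeR).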
